A study of Canis lupus familiaris with 58 samples.

Results

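Genes that mark or shape naive and marginal zone B cells, 10 in all, were followed through B-cell lymphomas of 58 pet dogs. They were NOTCH2, DTX1, CD1C, FCER2, MS4A1, PAX5, BACH2, HHEX, BANK1 and IL4R. Members were chosen by name, as probe sets that carry one of these gene symbols and no other, and 10 of 10 were measured among the 15115 genes of an Affymetrix canine expression array. Where a gene had more than 1 probe set, the one with the highest mean was used. Each array held RNA of a biopsy taken from a different client-owned dog before treatment. There were 32 lymph nodes diagnosed as diffuse large B-cell lymphoma (DLBCL), 7 lymph nodes diagnosed as marginal zone lymphoma (MZL), and 19 fine needle aspirates whose diagnosis was labelled unknown. The labels also give the status of the immunoglobulin heavy chain variable region (IGHV) as static in 26 dogs, ongoing in 27 and ND in 5, and times with indicators for progression-free survival (PFS) and overall survival (OS). Genotype, breed and age were not used here, and the labels name no healthy control tissue.

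Naive B cells circulate until they meet antigen, and marginal zone B cells sit at the border of the follicle, where blood- or lymph-borne antigen arrives. NOTCH2 is the receptor whose signal directs B cells to the marginal zone fate in mice, and DTX1 (deltex) is a target and modulator of Notch signalling. Naive and follicular B cells carry the low-affinity IgE receptor FCER2 (CD23) and the interleukin-4 receptor chain IL4R, while CD1C, a lipid antigen-presenting molecule, is abundant on human marginal zone B cells. MS4A1 encodes CD20, the surface target of rituximab in human medicine. PAX5 holds B-cell identity, BACH2 restrains plasma cell differentiation, HHEX is a homeodomain factor of haematopoietic cells, and BANK1 is a scaffold in B-cell receptor signalling.

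The deposited values were log2 expression values, so a difference of 1 is a doubling of signal, and a level is comparable between dogs for one gene but not between genes. Array medians lay between 7.08 and 7.20. The mean correlation of each array with the others was between 0.941 and 0.978, lowest in aspirate replicate 4. The 3′ minus 5′ difference of control probe sets, which grows as RNA degrades, was 3.642 in lymph node DLBCL replicate 24 and 2.032 in aspirate replicate 4, and 1.200 or lower elsewhere. The B-cell receptor chain CD79A was at 8.72 ± 0.97 (SD, n = 32) in DLBCL nodes, 8.19 ± 0.73 (n = 7) in MZL nodes and 8.84 ± 1.03 (n = 19) in aspirates. The T-cell marker CD3E was at 9.38 ± 0.25 in DLBCL nodes, 9.57 ± 0.32 in MZL nodes and 9.64 ± 0.32 in aspirates, and CD5 was at 8.22 ± 0.27, 8.41 ± 0.41 and 8.51 ± 0.37. All 3 groups thus held RNA of B and T cells, and in such bulk samples fewer cells of a type and less RNA per cell cannot be told apart.

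The members differed widely in how much they varied from dog to dog. Across the 32 DLBCL nodes the SD of CD1C was 1.26, at the 99.2 percentile of all genes, and that of MS4A1 was 1.14, at the 98.9 percentile, against a median of 0.24 over all genes. Without DLBCL replicate 14, the node lowest for both, the SD was 1.18 for CD1C and 0.52 for MS4A1. The wide SD of MS4A1 thus rested largely on that tumour. BANK1 had an SD of 0.52 and HHEX of 0.49. PAX5 varied least among the 10, with an SD of 0.12 at the 6.6 percentile, followed by IL4R with 0.17, BACH2 with 0.20, DTX1 with 0.21, FCER2 with 0.29 and NOTCH2 with 0.38. The probe sets of these less variable members lay between the 4.5 (BACH2) and 50.7 (PAX5) percentiles of mean level. Those of HHEX, CD1C, BANK1 and MS4A1 lay higher, between 72.3 and 98.6. The part of signal level in the spread was not tested.

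**Figure D1:**
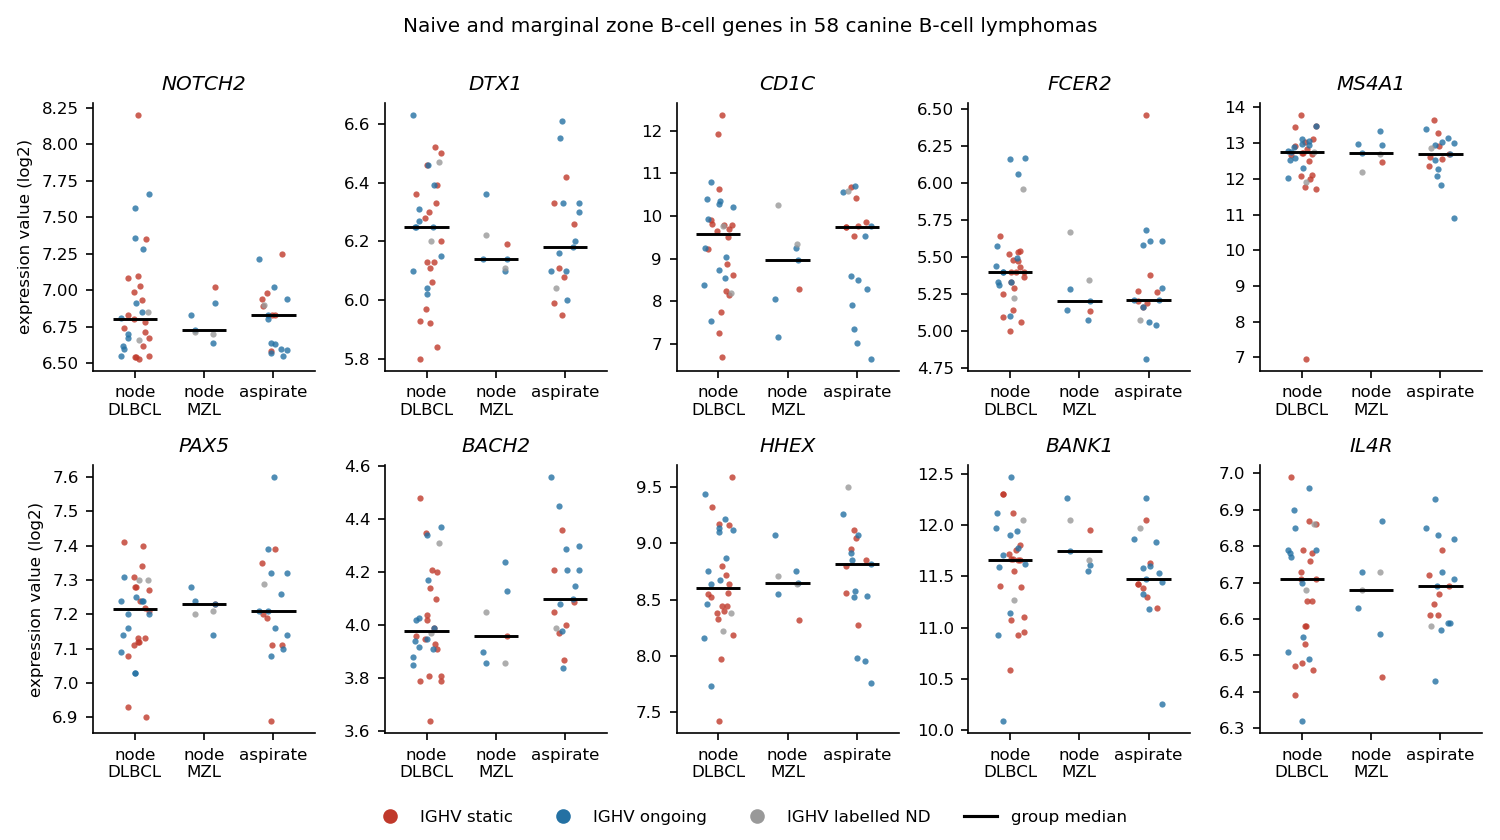
Expression values (log2, vertical axes that differ between panels) of the 10 genes in each of the 58 dogs, by specimen and diagnosis; each point is a dog, coloured by IGHV status, and the black line is the group median. Points of the 3 groups overlap in every panel, CD1C spreads over 5.68 log2 units in DLBCL nodes, and 1 DLBCL node lies at 6.96 for MS4A1.

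Among the Notch genes, NOTCH2 ran from 6.53 through a median of 6.81 to 8.20 in DLBCL nodes, from 6.64 through 6.73 to 7.02 in MZL nodes and from 6.55 through 6.83 to 7.25 in aspirates. Its highest value was in DLBCL replicate 16, and the second highest was 7.66. DTX1 ran from 5.80 through 6.25 to 6.63 in DLBCL nodes, from 6.10 through 6.14 to 6.36 in MZL nodes and from 5.95 through 6.18 to 6.61 in aspirates. For both genes the MZL dogs lay inside the span of the DLBCL dogs.

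CD1C had the broadest continuous range. It ran from 6.69 through a median of 9.57 to 12.37 in DLBCL nodes, a 51.3-fold span, from 7.16 through 8.97 to 10.25 in MZL nodes and from 6.65 through 9.74 to 10.70 in aspirates. The highest value was again in DLBCL replicate 16, which was also highest for NOTCH2. CD1A6, CD1B and CD1E, other genes of the lipid antigen-presenting CD1 family, are close relatives whose probes could share signal. Across DLBCL nodes CD1C correlated with CD1B (Pearson r = 0.652, Spearman rho = 0.554, permutation p = 2e-05 and 0.0015, adjusted over 3 relations 6e-05 and 0.0045), and r without the 2 dogs farthest from the median was 0.574. The relations with CD1A6 and CD1E did not pass there, at r of 0.300 and 0.276 (adjusted permutation p = 0.125 for each). Their rho was 0.174 and 0.326. Across the 19 aspirates the r of CD1C was 0.758 with CD1A6, 0.516 with CD1B and 0.465 with CD1E (adjusted permutation p = 0.00057, 0.0341 and 0.0382). The rho was 0.653, 0.604 and 0.526 (adjusted permutation p = 0.00939, 0.0108 and 0.0217), and r without the 2 farthest dogs was 0.612, 0.522 and 0.427.

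The other surface receptors had narrower ranges. FCER2 ran from 5.00 through 5.40 to 6.17 in DLBCL nodes, from 5.07 through 5.20 to 5.67 in MZL nodes and from 4.81 through 5.21 to 6.46 in aspirates. The mean of its probe set lay at the 17.8 percentile of all probe sets; its signal and the array background were not told apart here. IL4R ran from 6.32 through 6.71 to 6.99 in DLBCL nodes, from 6.44 through 6.68 to 6.87 in MZL nodes and from 6.43 through 6.69 to 6.93 in aspirates.

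Of the nuclear factors, HHEX ran from 7.42 through 8.60 to 9.59 in DLBCL nodes, from 8.32 through 8.65 to 9.07 in MZL nodes and from 7.76 through 8.82 to 9.50 in aspirates. PAX5 ran from 6.90 through 7.22 to 7.41 in DLBCL nodes, from 7.14 through 7.23 to 7.28 in MZL nodes and from 6.89 through 7.21 to 7.60 in aspirates. PAX5 had 5 probe sets, and the other 4 correlated with the one used at r between -0.16 and 0.34 over the 58 dogs, so its small range describes 1 probe set and not every PAX5 probe. BACH2 ran from 3.64 through 3.98 to 4.48 in DLBCL nodes, from 3.86 through 3.96 to 4.24 in MZL nodes and from 3.84 through 4.10 to 4.56 in aspirates, and its probe set lay at the 4.5 percentile of mean level. The scaffold gene BANK1 ran from 10.09 through 11.67 to 12.47 in DLBCL nodes, from 11.55 through 11.75 to 12.27 in MZL nodes and from 10.25 through 11.47 to 12.27 in aspirates.

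MS4A1 was high in every dog but one. In DLBCL nodes it ran from 6.96 through a median of 12.74 to 13.79, in MZL nodes from 12.19 through 12.73 to 13.34 and in aspirates from 10.90 through 12.70 to 13.66. The value of 6.96 belonged to DLBCL replicate 14, a dog of static IGHV status. The other 31 DLBCL nodes lay between 11.72 and 13.79, so this tumour was 27-fold below the next lowest and 55.2-fold below the median of the others. The second MS4A1 probe set gave 4.43 in this tumour and 10.62 to 12.69 in the others.

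No other gene had a downward gap of that size in this tumour, and upward gaps were not computed. The distance of 4.76 log2 units between replicate 14 and the next lowest DLBCL node was the widest such downward gap of this tumour over all 15115 genes, and the second widest was 1.10. Each of the 21 measured pan B-cell genes lay between the lowest and the highest of the other 31 tumours. The receptor chains CD79A and CD79B were at 8.61 and 10.42 against medians of 8.73 and 10.63, the adaptor BLNK was at 12.32 against 12.42 and the B-lineage factor EBF1 was at 9.02 against 9.46. BANK1 was at 11.55 against 11.67, HHEX at 8.44 against 8.64 and PAX5 at 7.12 against 7.22.

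CD1C, BACH2 and NOTCH2 also had their lowest DLBCL value in the same tumour. CD1C was at 6.69 and the next lowest at 7.26, BACH2 was at 3.64 and the next lowest at 3.79, and NOTCH2 was at 6.53 and the next lowest at 6.54. Over all genes, 315 of 15115 (2.08%) were lowest in this tumour. Those that were highest in it numbered 404 (2.67%). Of 20 measured macrophage and dendritic cell genes, 4 were among them, namely CD14 at 9.35, CD68 at 10.88, the complement gene C1QC at 12.44 and the CSF1 receptor CSF1R at 9.25. Of the 20, 15 were above the median of the other 31 tumours, where 46.2% of all genes were, and 5 were below it. Among these the dendritic cell genes LAMP3 at 11.05 and CD1B at 5.76 ranked 2 and 3 from the lowest of 32. Of 22 T-cell genes 2 were highest in this tumour, CTLA4 at 6.89 and CD28 at 6.38. Of the 22, 18 were above the median, against the same 46.2% of all genes, and 4 were below it. CD3D and CD3G, chains of the T-cell receptor complex, ranked 13 and 12 from the lowest, CD247 6 and TRAT1 4. The part of these genes in the low MS4A1 was not tested. The array itself had a mean correlation of 0.972 with the others and a 3′ minus 5′ difference of 0.75. Because it was singled out after its value was seen, the group differences and correlations of MS4A1 are given with and without it.

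**Figure D2:**
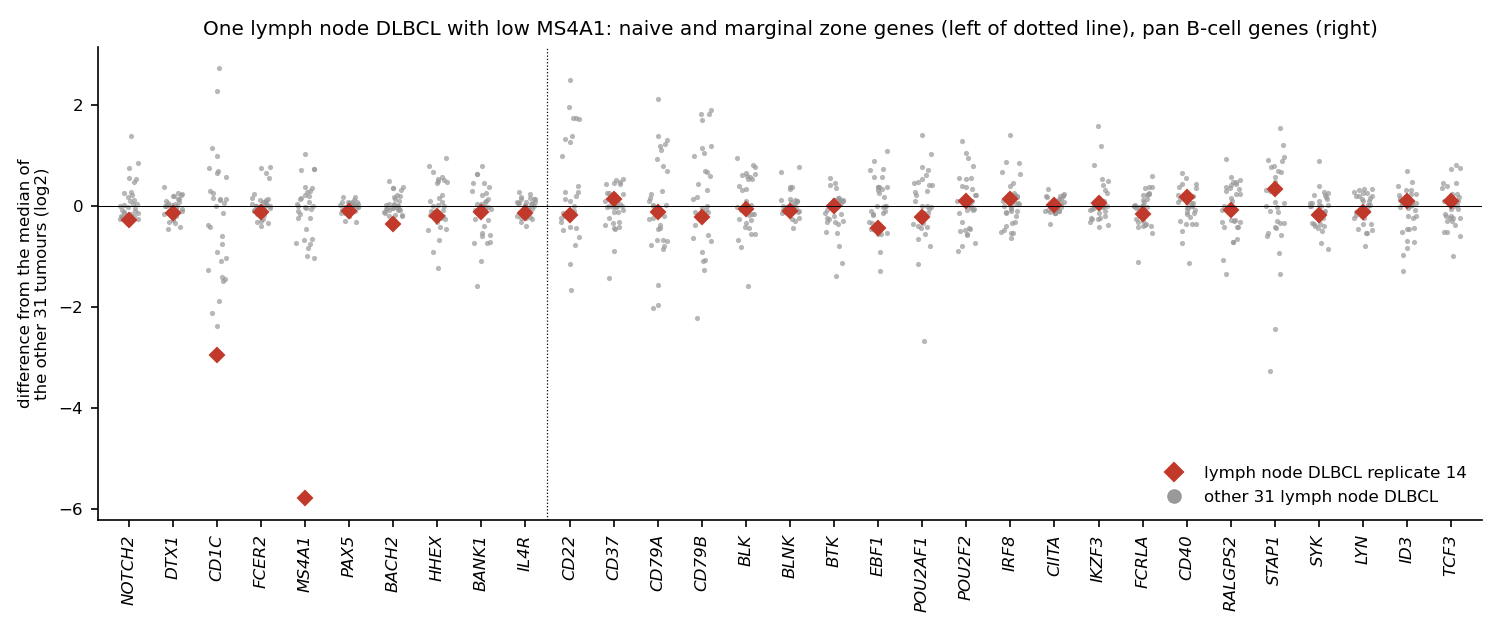
Difference of each lymph node DLBCL from the median of the 31 tumours other than replicate 14 (log2, vertical axis), for the 10 members left of the dotted line and 21 pan B-cell genes right of it; red diamonds are replicate 14 and grey points the other 31. The diamond for MS4A1 lies far below all grey points, that for CD1C lies just below them, and those of all pan B-cell genes lie among them.

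The comparison of the 7 MZL with the 32 DLBCL lymph nodes asks whether genes of marginal zone and naive B cells separate the diagnoses. No member did so in this test. In limma's linear model 0 of 10 members passed an adjusted p of 0.05 (Benjamini-Hochberg over all genes; adjusted p = 1.00 for each), and neither did any of the 15115 genes (0%). At an unadjusted p under 0.05 there were 0 members and 176 genes (1.16%), and a rank-sum test also called 0 genes after adjustment and 231 before it. For 10 of 10 members the MZL dogs lay inside the range of the DLBCL dogs, as they did for 80.4% of all genes. Of the members 4 were above 0, as were 46.1% of all genes, and the median difference was -0.02 over the members and -0.01 over all genes.

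The widest difference was that of CD1C, -0.60 ± 0.49 (MZL minus DLBCL, log2, standard error), with a 95% interval from -1.60 to 0.40. NOTCH2 differed by -0.12 ± 0.15 with an interval from -0.41 to 0.18, and DTX1 by -0.04 ± 0.08 with an interval from -0.20 to 0.12. The intervals thus left room for a CD1C difference of up to 1.60 log2 units, but not for a NOTCH2 difference beyond 0.41 in either direction. MS4A1 differed by 0.24 ± 0.43, and by 0.06 without DLBCL replicate 14.

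FCER2 had the smallest unadjusted p of the 10, with a difference of -0.18 ± 0.11 (p = 0.116) and 1 of 7 MZL dogs above the DLBCL median. With IGHV status as a covariate, among the dogs whose status was known, its difference was -0.35 (p = 0.00858), and without MZL replicate 2 it was -0.25 (p = 0.0414); the adjusted p stayed at 1.00 in both. BANK1 differed by 0.26 ± 0.20. HHEX, PAX5, BACH2 and IL4R differed by 0.03 ± 0.19, 0.02 ± 0.05, -0.02 ± 0.08 and -0.02 ± 0.07, each near 0 and with a sign that changed with the setting for HHEX, BACH2 and IL4R.

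**Figure D3:**
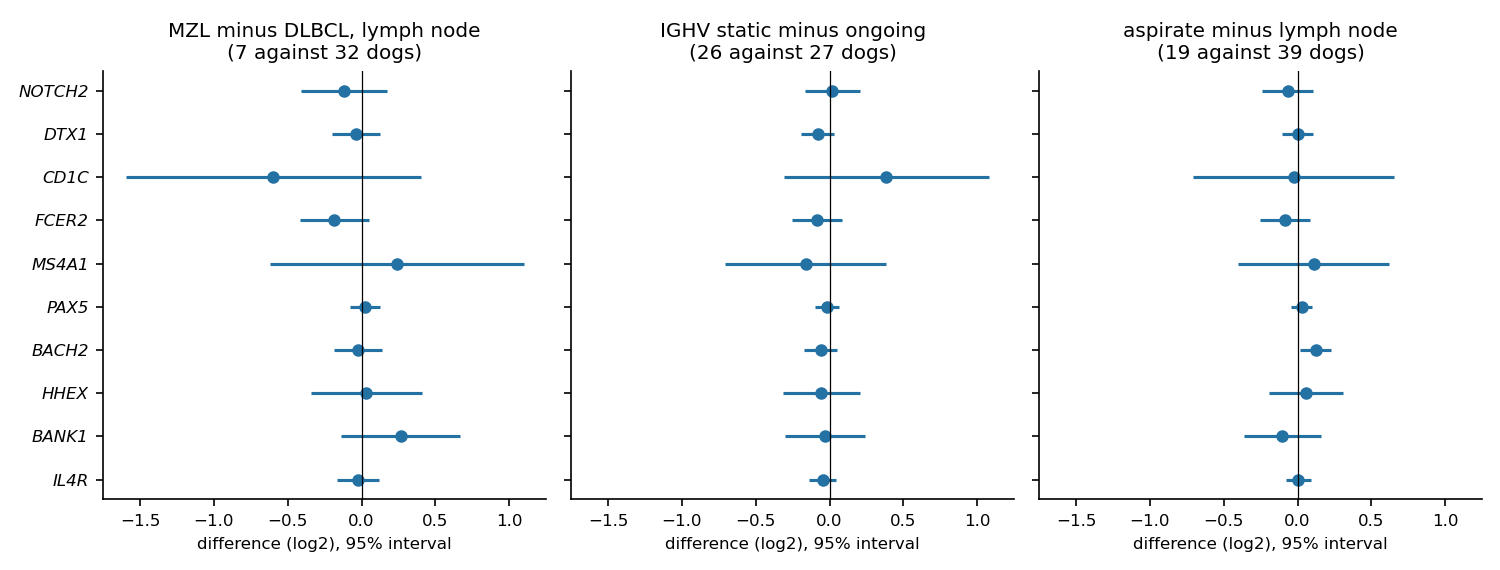
Difference of each member (log2, points) with its 95% interval (lines) for diagnosis in lymph nodes, for IGHV status and for specimen. Every interval crosses 0 except that of BACH2 for specimen, and CD1C and MS4A1 have the widest intervals.

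Other genes of the same pathways were no more separated by diagnosis. In the Notch pathway 0 of 27 measured genes passed the adjusted test, with 16 higher and 11 lower in MZL and a median difference of 0.02. The smallest p-values there were those of the Notch transcription factor RBPJ (0.23 ± 0.13), the receptor NOTCH4 (0.08 ± 0.06) and the ligand-activating ligase MIB1 (0.26 ± 0.18). In the interleukin-4 receptor pathway 0 of 19 passed, with a median of -0.01, and its leading genes were the adaptor IRS2 (-0.10 ± 0.05), the cytokine signal inhibitor CISH (0.11 ± 0.08) and the partner receptor chain IL13RA1 (-0.56 ± 0.42).

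Among 18 further naive and marginal zone B-cell genes 0 passed the adjusted test, with 8 higher, 10 lower and a median of 0.00. The efflux transporter ABCB1 differed by 0.47 ± 0.17 (unadjusted p = 0.0107), lymphotoxin beta, LTB, by 0.50 ± 0.32, and the homing receptor CCR7 by -0.50 ± 0.31. Of the 21 pan B-cell genes 0 passed, 15 were lower in MZL and the median was -0.09. IKZF3, SYK and FCRLA, a lymphoid transcription factor, a receptor-proximal kinase and an Fc receptor-like protein, had differences of -0.29 ± 0.16, -0.26 ± 0.16 and -0.23 ± 0.14.

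T-cell genes were mostly higher in MZL without passing the test. Of 22 measured, 18 were higher in MZL, 6 of them at an unadjusted p under 0.05, where 0.695% of all genes were, and the median difference was 0.21. SH2D1A, a signalling adaptor, was at 7.72 ± 0.89 (SD) in MZL and 6.92 ± 0.57 in DLBCL nodes, the checkpoint receptor CTLA4 at 6.27 ± 0.98 and 5.55 ± 0.51, and CD7 at 7.69 ± 0.53 and 7.24 ± 0.40. The mean of the centred T-cell genes ran from -0.37 to 0.89 in MZL and from -0.62 to 0.56 in DLBCL nodes. With that mean as a covariate the difference of CD1C was -0.28 and that of ABCB1 was 0.24. Of 13 germinal centre genes 4 were higher in MZL and 9 lower, with a median difference of -0.03. Among them TOX, a nuclear factor that T cells also use, was at 7.59 ± 1.56 in MZL and 5.96 ± 1.09 in DLBCL nodes (difference 1.62 ± 0.48, unadjusted p = 0.00153, adjusted p = 1.00). None of the 20 macrophage and dendritic cell, 10 plasma cell, 17 proliferation, 16 follicular dendritic cell and stroma, 12 endothelial and 5 erythroid genes passed either.

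IGHV status was compared next, in 26 static and 27 ongoing tumours with specimen and diagnosis as strata. Tumours whose IGHV sequence keeps acquiring mutations resemble cells inside the germinal centre reaction, and those with a fixed sequence resemble cells outside it. No member passed the adjusted limma test, and 0 of 15115 genes did (0%), while 0 members and 1077 genes (7.13%) had an unadjusted p under 0.05. The rank-sum test called 0 genes after adjustment and 1002 before it. The differences, static minus ongoing, ran from -0.16 ± 0.27 for MS4A1 to 0.39 ± 0.35 for CD1C, 2 above 0 and 8 below where 47.2% of all genes were above, with a median of -0.05 against 0.00 over all genes. Without DLBCL replicate 14 the MS4A1 difference was 0.027 ± 0.16, the lowest was that of FCER2 at -0.081 ± 0.086, and 3 were above 0 and 7 below. Of the Notch genes 0 of 27 passed, of the interleukin-4 receptor pathway 0 of 19, and of the other naive and marginal zone genes 0 of 18, with medians of -0.02, -0.02 and -0.09.

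The values of CD1C by IGHV status were unlike in the 2 kinds of specimen, though not by a margin that passed the test of that difference. In aspirates the 7 static tumours ran from 9.54 through 9.77 to 10.67, and the 11 ongoing ones from 6.65 through 8.49 to 10.70. All static aspirates thus lay in the upper part of a wide ongoing range, and the lowest of them exceeded the ongoing median. In DLBCL nodes the 18 static tumours ran from 6.69 through 9.57 to 12.37 and the 12 ongoing ones from 7.53 through 9.60 to 10.79, so neither group was higher.

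The static minus ongoing difference of CD1C was 1.34 in aspirates alone (unadjusted p = 0.0149, adjusted p = 0.217) and -0.13 in DLBCL nodes alone (unadjusted p = 0.782, adjusted p = 1.00). The test of the difference between the specimens, an interaction term, gave 1.46 ± 0.71 with a 95% interval from 0.05 to 2.88 (unadjusted p = 0.0434, adjusted p = 0.544), which does not pass. In that fit 0 of 10 members and 2 of 15115 genes (0.0132%) passed, CLK3 and ATF7IP2, both named after their values were seen, and 1 member and 1375 genes (9.10%) had an unadjusted p under 0.05. Without DLBCL replicate 14 the interaction was 1.32 (unadjusted p = 0.0563), and without the 2 arrays that correlated least with the others, both aspirates, it was 1.15 (unadjusted p = 0.12). The low arm of CD1C in ongoing aspirates includes replicate 4, the array with the lowest correlation and a 3′ minus 5′ difference of 2.032. Over the 19 aspirates CD1C correlated with that difference at r = -0.636 (rho = -0.602, permutation p = 0.00157 and 0.00778, adjusted over 10 genes 0.00785 and 0.0389), and r was -0.505 without the 2 farthest dogs. The part of RNA quality in the IGHV difference was not tested beyond leaving out these arrays.

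For FCER2 the sign in aspirates rested on 1 dog. The 12 ongoing DLBCL nodes ran from 5.10 through 5.42 to 6.17 and the 18 static ones from 5.00 through 5.40 to 5.64, so the medians were close and the top of the ongoing range was higher. The difference in DLBCL nodes alone was -0.21 (unadjusted p = 0.0384, adjusted p = 1.00), and in aspirates alone 0.12 (unadjusted p = 0.484). Without aspirate replicate 8, a static dog at 6.46, the aspirate difference was -0.054 (unadjusted p = 0.654), so that both specimens had the same sign, and the difference over all specimens was -0.15 (unadjusted p = 0.0417, adjusted p = 0.799). The interaction of 0.31 ± 0.17 did not pass (adjusted p = 0.589), and it was 0.14 ± 0.15 without that dog (adjusted p = 0.904).

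Aspirates were compared with lymph nodes, 19 against 39 dogs, knowing that the diagnosis of the aspirated dogs was labelled unknown, so specimen and diagnosis cannot be told apart. No member passed the adjusted limma test, and 18 of 15115 genes did (0.119%). At an unadjusted p under 0.05 there were 1 member and 1780 genes (11.8%). That member was BACH2, with a difference of 0.12 ± 0.05 (aspirate minus node, p = 0.0237, adjusted p = 0.334), medians of 4.10 in aspirates, 3.98 in DLBCL nodes and 3.96 in MZL nodes, and overlapping ranges. Of the 10 differences 6 were above 0, against 46.9% over all genes, and the other 9 lay between -0.10 ± 0.13 for BANK1 and 0.11 ± 0.25 for MS4A1. Without DLBCL replicate 14 the MS4A1 difference was -0.039 ± 0.15 and 4 of the 10 were above 0. ALAS2, the haem synthesis enzyme of red cell precursors, passed with a difference of 0.61 ± 0.12 (adjusted p = 0.0133), as the 1 called gene of 5 erythroid genes measured. Of those 5 genes, 2 were higher in aspirates and 3 lower, with a median difference of -0.02. Of 22 T-cell genes 21 were higher in aspirates, 11 at an unadjusted p under 0.05 where 6.52% of all genes were, and 0 passed the adjusted test.

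Outcome was examined with a Cox score test of each gene, stratified by specimen. For PFS, with 47 events in 55 dogs, 0 of 10 members and 0 of 15115 genes (0%) passed the adjusted test, and 0 members and 428 genes (2.83%) had an unadjusted p under 0.05. CD1C had a hazard ratio of 1.29 per log2 unit (95% interval 0.996 to 1.68, p = 0.0522), and BACH2 one of 0.169 (0.0269 to 1.07, p = 0.0564), the latter for a gene whose whole range in the 58 dogs was 0.91 log2 units. The remaining 8 hazard ratios lay between 0.472 for IL4R and 1.06 for DTX1, and both of these crossed 1 in other settings, with 1.94 for IL4R in DLBCL nodes alone and 0.251 for DTX1 in aspirates alone.

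For OS, with 41 events in 56 dogs, 0 of 10 members and 1 of 15115 genes (0.00662%) passed, DDX43, named after its value was seen, and 1 member and 603 genes (3.99%) had an unadjusted p under 0.05. CD1C was that member, with a hazard ratio of 1.37 per log2 unit (95% interval 1.02 to 1.85, unadjusted p = 0.0359, adjusted p = 1.00). Within DLBCL nodes its hazard ratio was 1.43 (30 dogs, p = 0.075) and within aspirates 1.46 (19 dogs, p = 0.139). The direction was thus the same in both specimens, while without the 2 arrays highest in 3′ minus 5′ difference the ratio was 1.32 (p = 0.0806). BANK1 had a hazard ratio of 0.700 (0.349 to 1.403), which was 0.415 in DLBCL nodes (p = 0.0526) and 1.68 in aspirates (p = 0.453), and the difference between the specimens was not tested. FCER2 had a ratio of 0.451 (0.144 to 1.42, p = 0.171). The tumour with low MS4A1 had no outcome times and did not enter these fits.

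**Figure D4:**
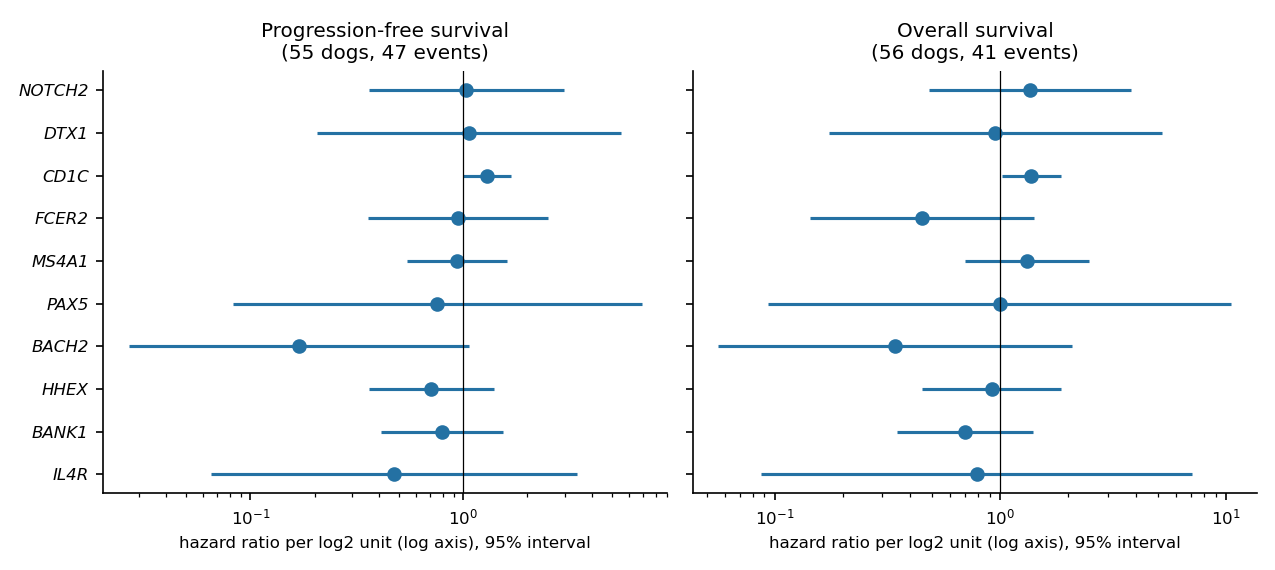
Hazard ratio per log2 unit of each member (points, log axis) with its 95% interval (lines) for progression-free and overall survival, from Cox models stratified by specimen. All intervals include 1 except that of CD1C for overall survival, from 1.02 to 1.85.

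Whether the members rise and fall together from tumour to tumour was examined over 45 pairs within the 32 DLBCL nodes and again within the 19 aspirates. In DLBCL nodes 7 of 45 correlations passed an adjusted p of 0.05 (100000 permutations, two-sided, Benjamini-Hochberg over the 45 pairs), 6 positive and 1 negative, and the median r of all pairs was 0.032. How often other genes pass such tests on these arrays was not computed, here or for the other correlations of members. These counts therefore do not set the members apart from other genes. DTX1, PAX5 and IL4R formed a trio, in which PAX5 was read from 1 of its 5 probe sets. The others correlated with that one at r between -0.16 and 0.34. With the mean of probe sets 4 of 45 pairs passed. DTX1 correlated with IL4R at r = 0.623 (rho = 0.661, adjusted p = 0.00574 and 0.00405) and with PAX5 at 0.579 (rho = 0.535, adjusted p = 0.00574 and 0.0157), and PAX5 with IL4R at 0.575 (rho = 0.487, adjusted p = 0.00574 and 0.0253). FCER2 correlated with IL4R at 0.524 (rho = 0.575, adjusted p = 0.0144 and 0.0112). The negative pair was the Notch receptor with its target, NOTCH2 and DTX1, at r = -0.466 (adjusted p = 0.0456), where rho was -0.372 (adjusted p = 0.0989). Without the 2 dogs farthest from the median these 5 pairs had r of 0.554, 0.475, 0.459, 0.614 and -0.418.

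These 5 relations moved with an array-wide quantity. The mean of the dimmer genes, those below the median gene in mean level, varied only from 6.20 to 6.39 between DLBCL nodes, yet DTX1 correlated with it at r = 0.739, IL4R at 0.665, PAX5 at 0.644 and FCER2 at 0.414, and NOTCH2 at -0.409 (adjusted permutation p over 10 genes 0.0001, 0.0001, 0.0001, 0.0349 and 0.0349). Their rho was 0.752, 0.559, 0.472, 0.497 and -0.349 (adjusted p = 0.0001, 0.0046, 0.0186, 0.0129 and 0.0651), and r without the 2 farthest dogs was 0.692, 0.565, 0.522, 0.300 and -0.270. BACH2 was the other member past the threshold, at r = -0.438 (adjusted p = 0.0316; rho = -0.385, adjusted p = 0.0465). With that mean as a covariate, a setting chosen after seeing the data, none of the 5 pairs passed, with partial r between -0.266 and 0.367. Then 1 of 45 pairs passed, MS4A1 with BACH2.

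MS4A1 and BACH2 correlated at r = 0.550 (rho = 0.524, adjusted p = 0.00574 and 0.0173), at 0.496 without the 2 farthest dogs, at 0.556 without replicate 14 and at 0.520 with the dim-gene mean as a covariate. In aspirates this pair did not pass, at r = 0.154 (rho = 0.300, adjusted p = 0.751 and 0.553). The BACH2 probe set was dim, at the 4.5 percentile of mean level. CD1C and MS4A1 correlated at r = 0.524 (rho = 0.430, adjusted p = 0.0144 and 0.051), and at 0.430 without replicate 14 (adjusted p = 0.0569), so this pair rests in part on the tumour that was lowest for both. Without replicate 14 the number of pairs past the threshold was 11, with MS4A1 and HHEX at 0.475 and MS4A1 and DTX1 at -0.496 among them.

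In aspirates 2 of 45 pairs passed, CD1C with MS4A1 at r = 0.693 (rho = 0.446, adjusted p = 0.0272 and 0.323) and MS4A1 with HHEX at 0.681 (rho = 0.663, adjusted p = 0.0272 and 0.123). Without the 2 farthest dogs these were 0.416 and 0.553, and when aspirate replicate 4, with the 3′ minus 5′ difference of 2.032, was left out 0 pairs passed. In aspirates MS4A1, HHEX, BANK1 and CD1C also correlated with the 3′ minus 5′ difference, at r of -0.732, -0.748, -0.689 and -0.636 (adjusted permutation p = 0.00847, 0.0003, 0.0201 and 0.00785). Without the 2 farthest dogs these were -0.331, -0.669, -0.112 and -0.505, so the relations of MS4A1 and BANK1 rest on those dogs (rho = -0.425 and -0.256, adjusted p = 0.181 and 0.476), while HHEX and CD1C had rho of -0.716 and -0.602 (adjusted p = 0.0079 and 0.0389). One pair passed in both groups, CD1C with MS4A1, and 31 of 45 pairs had the same sign in both.

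**Figure D5:**
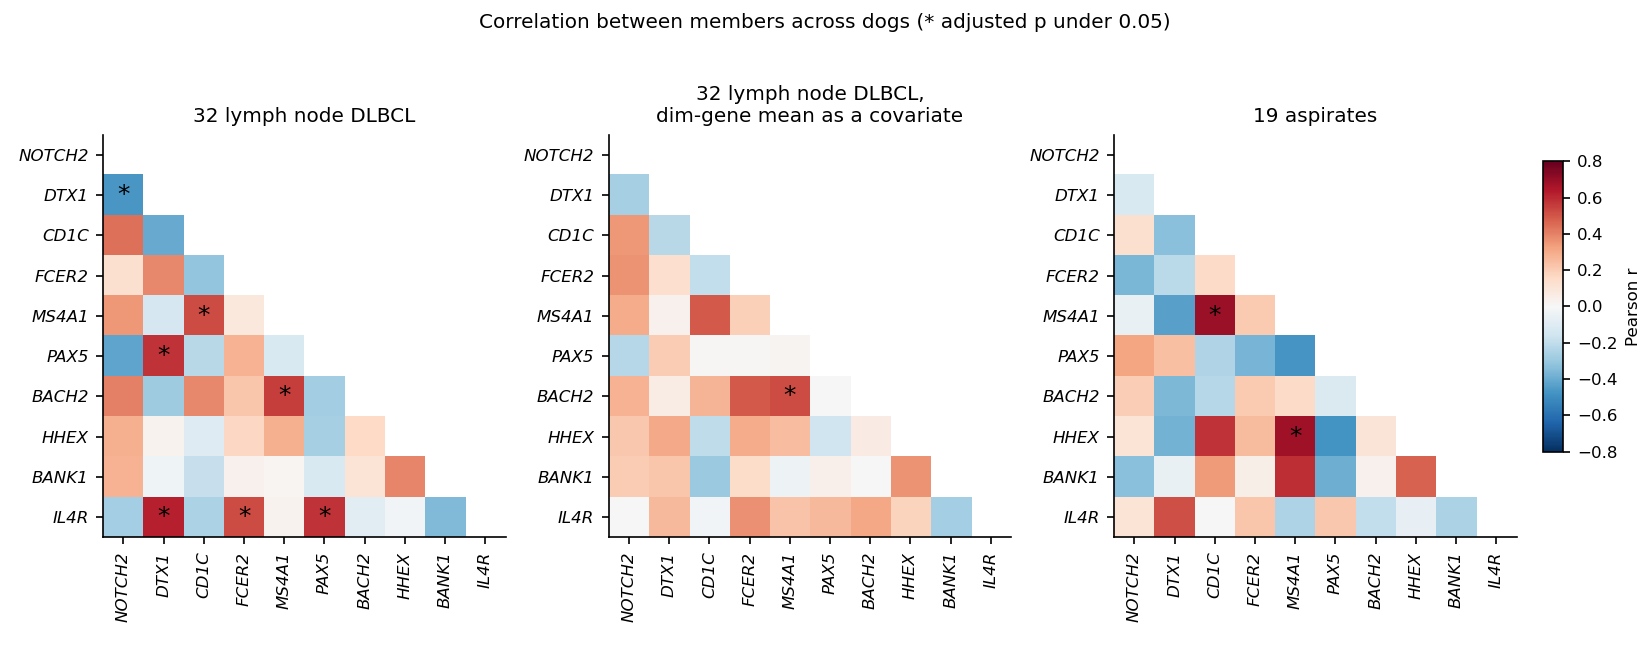
Pearson correlation (colour) between members across 32 lymph node DLBCL, the same with the mean of the dimmer genes as a covariate, and across 19 aspirates; an asterisk marks an adjusted permutation p under 0.05. There are 7, 1 and 2 asterisks, and MS4A1 with BACH2 keeps its asterisk in the middle panel but has none in aspirates.

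Members were set against a pan B-cell level, the mean of the 21 centred pan B-cell genes, which include none of the 10. That list was chosen by name, and whether its genes are restricted to B cells was not tested. That mean ran from -0.68 to 0.52 in DLBCL nodes. BACH2 correlated with it at r = 0.515 (rho = 0.476, adjusted p over 10 genes 0.0194 and 0.0174) and HHEX at 0.499 (rho = 0.474, adjusted p = 0.0194 and 0.0174). By r 2 of 10 members passed, and r was 0.416 and 0.418 for them without the 2 farthest dogs. By rho NOTCH2 also passed, at 0.469 (adjusted p = 0.0174), where its r of 0.411 did not (adjusted p = 0.0698). DTX1 and PAX5 ran against the pan B-cell level by rank, with rho of -0.449 and -0.443 (adjusted p = 0.0214 for each). Their r of -0.327 and -0.325 did not pass (adjusted p = 0.102 for each). Both also went with the dim-gene mean, at r of 0.739 and 0.644, and its part in the negative rho was not tested. PAX5 was read from 1 of 5 probe sets, and the other 4 correlated with that one at r between -0.16 and 0.34. MS4A1 had r = 0.361 (adjusted p = 0.102) but rho = 0.748 (adjusted p = 0.0001), and without replicate 14 its r was 0.738 (adjusted p = 0.0001). In the other 31 nodes CD20 message thus followed the mean of the pan B-cell genes, and in replicate 14 it lay far below what that mean would give. With the dim-gene mean as a covariate 0 of 10 passed, with r of 0.382 for BACH2 and 0.456 for HHEX. In aspirates HHEX passed at r = 0.617 (rho = 0.679, adjusted p = 0.0499 and 0.0184), and at 0.502 without aspirate replicate 4 it did not (adjusted p = 0.157). MS4A1 passed there by rho alone, at 0.602 (adjusted p = 0.0362), with r = 0.547 (adjusted p = 0.0508). PAX5 had a negative r in aspirates as well, -0.481, which did not pass (adjusted p = 0.0894). Its r with the dim-gene mean was 0.693 there.

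The genes most like each member over the 32 DLBCL nodes, 3 for each, are given as a description of these tumours. CD1C was closest to UBE2Z, KANSL2 and GMFB (r = 0.69, 0.66 and 0.66), which had r of 0.62, 0.47 and 0.65 with it in aspirates. MS4A1 was closest to TBC1D5, DCDC2 and FRMD8 (0.62, 0.62 and 0.61; without replicate 14 0.77, 0.59 and 0.70), with r of 0.18, -0.14 and 0.19 in aspirates. NOTCH2 was closest to KAT7, GPR132 and GOLT1B (0.82, 0.80 and 0.77; in aspirates 0.05, 0.49 and 0.11), and DTX1 to MYOM2, LRRC31 and CCDC78 (0.93, 0.89 and 0.87; in aspirates 0.50, 0.46 and 0.52).

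FCER2 was closest to NAV2, PROKR1 and ADGRA1 (0.70, 0.69 and 0.69; in aspirates -0.11, 0.25 and 0.25) and IL4R to PLEKHG6, AVPR2 and KRT85 (0.84, 0.81 and 0.80; in aspirates 0.43, 0.63 and 0.38). PAX5 was closest to KCNQ1, ASB16 and C1QL3 (0.79, 0.79 and 0.78; in aspirates 0.61, 0.59 and 0.37) and BACH2 to EPHA1, HOMER3 and TBC1D5 (0.71, 0.68 and 0.68; in aspirates 0.41, 0.45 and 0.40). HHEX was closest to EPSTI1, GIMAP4 and PGAP2 (0.72, 0.69 and 0.69; in aspirates 0.01, 0.44 and 0.68) and BANK1 to COPS2, TAF4B and THUMPD2 (0.78, 0.76 and 0.73; in aspirates 0.51, 0.01 and 0.54). None of these genes was itself a member or a pan B-cell gene. They were picked for their high r in DLBCL nodes, and 30 of the 30 had a lower r in aspirates, which was not tested.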

How the data were processed

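As deposited, the data are log2 values for 43035 probe sets on each of 58 arrays. The authors used RMA within Affymetrix Expression Console, per the submitters' processing notes; total RNA was amplified and biotin-labelled, per the labels' protocols. Values ran from 2.82 to 15.11. By the platform annotation, 29254 probe sets name 1 gene symbol, 439 several and 13231 none, and 111 are controls. Each of 15115 genes was read from its brightest probe set. No level filter was set.

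Each dog gave 1 sample, so p-values measure the spread between dogs. Replicate numbers follow the order of the deposit. Linear models used limma 3.58.1 in R 4.3.3, two-sided, with p-values adjusted across all genes after Benjamini and Hochberg. Cox score tests (checked against survival 3.8.3) were stratified by specimen, and dogs with an indicator of 1 counted as events; the unit of time was not used here. Scripts were tested on simulated data. The number of arrays limits the precision. Members and gene lists were chosen with earlier results of these data known. All members were named; from other lists, at most 3 genes with the smallest p for diagnosis and any gene past an adjusted p of 0.05 in another comparison, and the 3 genes most like each member, without locus-number names. Alternatives changed the probe set rule, array scaling, level filter, arrays kept, covariates and tests. No sequence is shown, since no canine sequence table was used here.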

Additional observations from a re-analysis of the deposited data

Results flagged for a closer look

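One result stood apart within its group. FCER2 in static aspirates (n = 7) was 6.46 in aspirate replicate 8 and 5.38 or lower in the other 6, so that the gap to the nearest dog was 0.832 of the group's range, above Dixon's 95% critical value for 7 samples. This value was also the highest FCER2 of all 58 dogs. The 10 members were examined in 30 combinations of gene and group. By chance about 1 in 20 groups has a gap past the critical value, so the count of 1 flagged group is within that rate. The rate holds for any gap past the critical value, and how often chance gives one as wide as 0.832 was not tested. The value of 6.46 enters the FCER2 comparison by IGHV status in aspirates, 0.12 static minus ongoing. That difference did not pass the test and was -0.054 without this dog.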

How the results depend on the processing

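In diagnosis, IGHV status, IGHV status by specimen, specimen, PFS and OS, 0 members passed the adjusted test in each alternative run. Of 351 alternative values of members named in these comparisons, 332 had the sign of the reported value, and the smallest adjusted p was 0.193. The 19 of opposite sign include 6 by diagnosis, those of MS4A1 in the rank-sum test (-0.016), BACH2 with the pan B-cell mean as a covariate (0.023), HHEX with IGHV status as a covariate (-0.078) and without MZL replicate 5 (-0.034), IL4R with the dim-gene mean as a covariate (0.0054) and without MZL replicate 7 (0.015). By IGHV status they were those of CD1C in DLBCL nodes alone (-0.13), FCER2 in aspirates alone (0.12) and in the rank-sum test (0.018), and MS4A1 in aspirates alone (0.34), in aspirates without aspirate replicate 8 (0.27) and without DLBCL replicate 14 (0.027). Without aspirate replicate 8 the MS4A1 difference by IGHV status ran from -0.20 over all specimens to 0.27 in aspirates. By specimen they were those of MS4A1 in the rank-sum test (-0.033) and without DLBCL replicate 14 (-0.039). Hazard ratios were followed for CD1C, BACH2, IL4R and DTX1 in PFS and for CD1C, BANK1 and FCER2 in OS. Of these, IL4R for PFS lay on the other side of 1 in DLBCL nodes alone (1.94). DTX1 for PFS did so in aspirates alone (0.251), with array medians set equal (0.947) and with 3 strata (0.993). BANK1 for OS did so in aspirates alone (1.68). Ratios outside this count also crossed 1, such as PAX5 for PFS (0.754 as reported, 5.85 in DLBCL nodes alone). IL4R for OS was 0.785 as reported and 5.24 in DLBCL nodes alone. The cause was not tested. Without 1 MZL dog at a time, the CD1C difference ran from -0.84 to -0.33 and that of FCER2 from -0.25 to -0.15, that of HHEX from -0.034 to 0.089 and that of IL4R from -0.056 to 0.015. ALAS2 lost its call when aspirates were compared with DLBCL nodes alone (adjusted p = 0.0565).

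Of pairs in DLBCL nodes, 7 passed in the reported setting, 4 with the mean of probe sets, 8 without the array highest in 3′ minus 5′ difference, 1 with the dim-gene mean as a covariate and 11 without replicate 14. In aspirates the counts were 2, 4, 0 and 1 in the settings that apply there. Against the pan B-cell level the counts by r in DLBCL nodes were 2 as reported and 4 without that array. They were 0 with the dim-gene mean as a covariate and 3 without replicate 14, and in aspirates 1, 0 and 0. The dim-gene covariate, the exclusions of DLBCL replicate 14 and of aspirate replicate 8, and every alternative for the pan B-cell level were chosen after seeing the data.

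Over all genes, 18 passed for specimen, 97 with the dim-gene mean as a covariate, 58 with the mean of probe sets, 28 with the pan B-cell mean as a covariate, 10 without either pair of doubtful arrays, and 6 among the genes above the median gene in mean level or against DLBCL nodes alone. For IGHV status 6 genes passed in aspirates alone, and 0 in aspirates without aspirate replicate 8, against 0 in the reported setting. For the interaction the count was 1 or 2, for PFS 0 or 1, and for OS between 0 and 2. No paired analysis was possible because each dog gave 1 sample and replicate numbers follow the order of the deposit. The low signal of BACH2 and FCER2 limits what their small differences can show.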
